A study of Homo sapiens with 2 samples.

Results

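C-to-U edits in short 3′ untranslated regions (3′UTRs) were examined in 2 long-read libraries of HEK293T, a human embryonic kidney cell line, 1 made with RBFOX2 antibody and 1 enzyme-only. In both, cells were fixed in methanol and exposed to a purified fusion of the cytidine deaminase APOBEC1 with a nanobody against rabbit IgG. The RBFOX2 cells had first received a rabbit antibody against the RNA-binding protein RBFOX2, and the enzyme-only cells had received no such antibody. In the labels the cell line is HEK293XT, the tissue is kidney, and the libraries are numbered 2 (RBFOX2) and 1 (enzyme-only). A 3′UTR was called short when the spliced 3′UTR of the gene's Ensembl canonical transcript (GENCODE 44) was under 500 nt. A member was a listed position in such a 3′UTR, on its strand. It lay outside the coding sequence of every canonical transcript on that strand and was listed in only 1 library. The rule gave 5482 of 109357 such edit sites in the RBFOX2 library, a share of 5.01% (95% interval 4.88 to 5.14), and 4456 of 91111 in the enzyme-only library, a share of 4.89% (4.75 to 5.03). Of the members, 160 RBFOX2 and 174 enzyme-only sites lay in the coding sequence of another annotated transcript. Another 936 short 3′UTR positions were listed in both libraries and were left out.

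The 3′UTR lies between the stop codon and the poly(A) tail and carries many of the sites through which RNA-binding proteins and microRNAs act on stability, localization and translation. Its 3′ end is set by cleavage a short way downstream of a poly(A) signal, most often AAUAAA. RBFOX2 is a splicing regulator that binds UGCAUG, and APOBEC1 deaminates cytosine to uracil, preferring a cytosine that follows A or U. Genes with short 3′UTRs include many that every cell uses, such as those for ribosomal proteins, the respiratory chain and the proteasome.

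With 1 library per group there was no replicate, and no p-value was computed. All intervals are exact 95% intervals that cover counting error only. The tables do not say which read carried which edit, so several sites of a 3′UTR may come from 1 molecule, and the intervals, which treat sites as separate, are then too narrow. The RBFOX2 table listed 10199 loci with 2431345 reads in all, and the enzyme-only table had 10182 loci with 2233600 reads. Every listed site had over 0.2% of its locus' reads converted, so a locus of 500 reads or more lists no site with 1 converted read, and the number of converted reads that a listed site needs rises with depth. The neurofilament genes NEFL and NEFM, which HEK293 cells express, had 203 and 281 reads in the RBFOX2 library and 161 and 263 in the enzyme-only library, while PAX2 had 0 and 3 and LHX1 had none. None of the adult kidney markers UMOD, AQP2, NPHS1, SLC12A1 and SLC12A3 had a listed locus in either library.

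The sequences of the strongest sites show the context in which the enzyme acted. For each library the site with the most converted reads is given for 5 leading genes. In the enzyme-only list RPLP0, with 9 converted of 4247 reads at a site 11 nt before the annotated 3′ end, is left out. The next gene, NPM1, takes its place. The edited cytosine is in capitals with 14 bases on either side, read 5′ to 3′ on the transcript strand from hg38. The RBFOX2 sites come first.
C1QBP chr17:5432826-5432854, minus strand: catttttttctgtaCaaatctattatttc
H2AZ1 chr4:99948121-99948149, minus strand: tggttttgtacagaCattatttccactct
SRSF9 chr12:120461939-120461967, minus strand: gtgctcagaatctaCattccagattgagg
UBB chr17:16382625-16382653, plus strand: cagtgatggcattaCtctgcactatagcc
NPM1 chr5:171410808-171410836, plus strand: tagcggtggtcagaCatggaaatggtggg
The enzyme-only sites follow in the same form.
C1QBP chr17:5432840-5432868, minus strand: ttctcatttattatCatttttttctgtac
PRDX1 chr1:45511193-45511221, minus strand: attgtggtgtcttaCaaggcaggcctttc
SRSF9 chr12:120461716-120461744, minus strand: actatggagatcaaCagttactgtgactg
BTF3 chr5:73505289-73505317, plus strand: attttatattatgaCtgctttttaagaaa
NPM1 chr5:171410585-171410613, plus strand: tgttaaaaaattttCcgtcttatttcatt

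All 10 cytosines followed A or U. The leading RBFOX2 site, in C1QBP, the gene for a mitochondrial matrix protein, lay 175 nt after the stop codon and had 27 converted of 5926 reads, an edit fraction of 0.456%. The leading enzyme-only site lay in the same 3′UTR, 161 nt after the stop codon, with 11 converted of 5333 reads, 0.206%. H2AZ1, which encodes a histone H2A variant, had 22 converted of 6293 reads (0.350%), and SRSF9, a splicing factor of the SR family, 21 of 3510 (0.598%) in the RBFOX2 library. In the enzyme-only library the leading SRSF9 site had 9 converted of 3082 reads (0.292%), and the site in PRDX1, a peroxiredoxin, 9 of 3082 (0.292%). These sites stood out by depth rather than by fraction, since all 10 had edit fractions under 1%. UBB (ubiquitin), NPM1 (nucleophosmin) and H2AZ1 belong to families with near-identical copies elsewhere in the genome, so the assignment of their reads is less certain.

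RBFOX2 sites near a copy of UGCAUG are shown for the 5 genes with the most converted reads at a site within 16 nt of it. The motif and the edited cytosine are in capitals, and U is written as T.
FTH1 chr11:61964645-61964673, minus strand: agtgcaTGCATGttggggtttCctttacc
BANF1 chr11:66003939-66003967, plus strand: ttggattCtcgctctTGCATGcctccccc
NGRN chr15:90272037-90272065, plus strand: cccgtgtTGCATGtgttgttaCaattttc
AHSA1 chr14:77469384-77469412, plus strand: gggtttgTGCATGttttctgCtgggtggg
CKS2 chr9:89316527-89316555, plus strand: tacctgTGCATGagctgtattCttcacag

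In 4 of the 5 the edited cytosine lay 3′ of the motif. The site in FTH1, the ferritin heavy chain, had 8 converted of 2913 reads (0.275%), and that in BANF1, a chromatin-binding barrier factor, 7 of 1099 (0.637%). The sites in NGRN, in AHSA1, an HSP90 co-chaperone, and in CKS2, a subunit of cyclin-dependent kinases, had 6 of 840 reads (0.714%), 5 of 764 (0.654%) and 5 of 873 (0.573%). The sites shown lay 8 to 10 nt from the hexamer, but they were picked for lying within 16 nt of it. Of all RBFOX2 sites, 25 lay 1 to 10 nt on the 5′ side of a motif and 26 on the 3′ side. These were 1.17 (0.756 to 1.72) and 1.32 (0.863 to 1.94) of the number expected on equally edited cytosines of the same 3′UTR.

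Of 19559 canonical 3′UTRs, 5999 were short and 2197 of those had a listed locus. Of these and of short 3′UTRs within loci named for another gene, 1732 held at least 1 member site, 1012 in both libraries, 393 in the RBFOX2 library only and 327 in the enzyme-only library only. Their lengths ran from 14 to 499 nt with a median of 284 nt, and their median G+C content was 46.7%. A poly(A) signal (AAUAAA or AUUAAA, same strand, starting in the last 50 nt) was found in 1422 of them (82.1%), and in 1127 it was AAUAAA. Sites in more than 1 short 3′UTR, 99 in the RBFOX2 and 85 in the enzyme-only library, could not be placed, which left 5383 and 4371 sites with a position. A 3′UTR with sites held a median of 3 RBFOX2 sites (at most 25) and 2 enzyme-only sites (at most 22). At the length limit, 3′UTRs of 450 to 499 nt held 805 RBFOX2 and 659 enzyme-only sites, and those of 500 to 549 nt, just outside, held 1088 and 768.

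Edits were spread along nearly the whole of short 3′UTRs in both libraries, with few at the very 3′ end. The mean site lay 46.0% (SE 0.368 over 5383 sites) of the way from the stop codon to the annotated end in the RBFOX2 library and 45.1% (SE 0.415 over 4371 sites) in the enzyme-only library. Had each 3′UTR's sites fallen equally on its cytosines, the means would have been 46.2% and 45.8%. From the second to the ninth decile (10 equal parts of each 3′UTR), the observed number of sites divided by this expected number was between 1.02 and 1.11 in the RBFOX2 library and between 0.930 and 1.15 in the enzyme-only library. The 2 ends departed from this.

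In the first decile, next to the stop codon, the RBFOX2 library had 537 sites against 671 expected, 0.80 of expected (0.734 to 0.871). The enzyme-only library had 546 against 539, a value of 1.01 (0.930 to 1.10). The ratio of the libraries there, scaled by their totals of sites with a position, was 0.799 (0.708 to 0.901). This scaling takes no account of where the cytosines lie. The RBFOX2 library thus had relatively fewer sites next to the stop codon by more than counting error. Cytosines of the first decile followed A or U less often than those of the last decile (38.2% and 56.2% in 3′UTRs with RBFOX2 sites). With sites expected only on cytosines after the same base, the RBFOX2 value rose to 0.865 (0.794 to 0.942) and the enzyme-only value to 1.07 (0.982 to 1.16). By distance, the RBFOX2 value was 0.797 (0.692 to 0.914) at 1 to 10 nt after the stop codon, 0.832 (0.722 to 0.954) at 11 to 20 nt and 1.09 (1.03 to 1.14) at 101 to 200 nt. By depth, the first decile was at 0.817 (0.742 to 0.897) in the RBFOX2 and 1.04 (0.945 to 1.14) in the enzyme-only library for loci of 500 reads or fewer in each, and at 0.735 (0.563 to 0.945) and 0.675 (0.462 to 0.953) for loci of 500 reads or more. The libraries thus differed next to the stop codon in shallower loci, and in the deeper ones both were low.

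**Figure D1:**
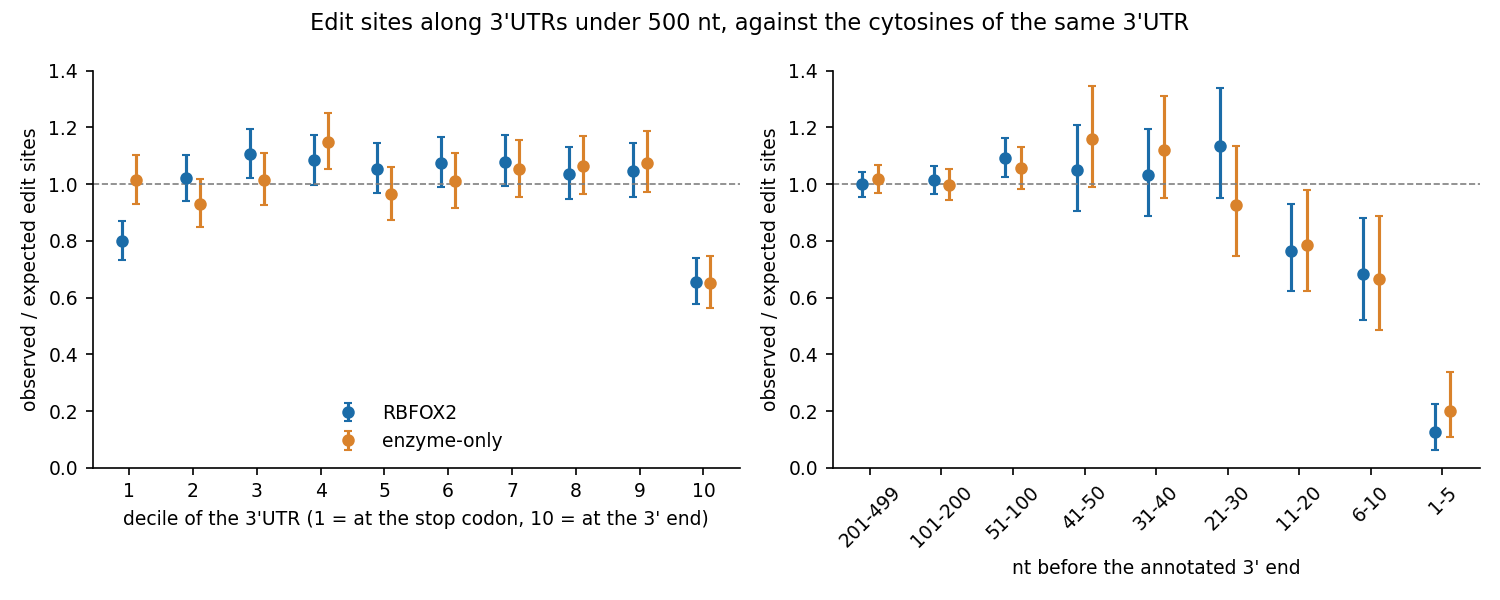
Observed over expected edit sites in RBFOX2 (blue) and enzyme-only (orange) libraries, by decile of the 3′UTR (left) and by nt before the annotated 3′ end (right), with exact Poisson 95% intervals; 1 is the number expected on equally edited cytosines of the same 3′UTR. Only the RBFOX2 library is low in the first decile (0.80), and both are low in the last decile (0.656 and 0.652) and lowest in the last 5 nt (0.126 and 0.201).

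At the 3′ end both libraries had fewer sites than expected, and they did not differ beyond counting error. The last decile held 260 RBFOX2 sites, 0.656 of expected (0.579 to 0.741), and 202 enzyme-only sites, 0.652 (0.565 to 0.748). Their ratio, scaled by the same totals of sites, was 1.05 (0.866 to 1.26). In the last 5 nt there were 11 RBFOX2 and 14 enzyme-only sites, 0.126 and 0.201 of expected. At 6 to 10 nt from the end the values were 0.684 and 0.664, at 11 to 20 nt 0.764 and 0.786, and at 21 to 30 nt 1.13 and 0.925.

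Fewer isoform models reached the 3′ end than the stop codon. The deposited isoform models of a locus held on average 90.5% of the positions of the first decile and 69.3% of those of the last, and 63.3% of those in the last 5 nt. A model ended within 25 nt of the annotated end in 91.2% of listed short 3′UTRs, and in 14.8% a model ended over 50 nt past it. With cytosines weighted by the share of models that hold them, the last decile rose to 0.803 (0.708 to 0.906) in the RBFOX2 and 0.784 (0.679 to 0.899) in the enzyme-only library, and the last 5 nt to 0.171 and 0.265. At 6 to 10 nt the weighted values were 0.812 (0.618 to 1.05) and 0.777 (0.567 to 1.04), and at 11 to 20 nt 0.887 (0.723 to 1.08) and 0.898 (0.713 to 1.12), intervals that include 1. Models count isoforms and not reads, so the read depth at each position was not tested.

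Relative to the poly(A) signal, sites were found up to it and few were found beyond the first 10 nt after it. At 21 to 50 nt upstream of the signal there were 514 RBFOX2 and 429 enzyme-only sites, 1.11 and 1.13 of expected. At 1 to 10 nt downstream there were 127 and 93 sites, 0.897 and 0.819 of expected. More than 10 nt downstream only 36 and 34 sites were listed, 0.272 (lower bound 0.190) and 0.346 (lower bound 0.240) of expected, and weighting by isoform models gave 0.347 and 0.429. In both libraries the fall in sites came after the signal.

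The layout of the 3′ end is shown for 4 of the most edited short 3′UTRs by their last 30 nt, with the AATAAA of the poly(A) signal in capitals.
RRAGA chr9:19050996-19051025, plus strand: ttcatgAATAAAcgtgttagcaatttaaaa
CFAP20 chr16:58113592-58113621, minus strand: gAATAAAgtgatatattcctggtttgtaaa
ITGB3BP chr1:63440770-63440799, minus strand: agacttAATAAAgcatgtataaaagtggca
TOMM5 chr9:37588413-37588442, minus strand: tgtttttAATAAAcatatcaattaagaaaa

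The last 30 nt of RRAGA held 3 cytosines and no site in either library, although its 3′UTR held 25 RBFOX2 sites. CFAP20 had 2 cytosines and no site there, ITGB3BP 3 cytosines and 1 RBFOX2 site, and TOMM5 2 cytosines and 1 RBFOX2 site. With 10 cytosines in all, these windows are too small to show a fall.

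Densities were compared on both sides of the stop codon. In the last 200 nt of coding sequence before a short 3′UTR, the RBFOX2 library had 29.8 to 36.7 sites per 1000 cytosines in each window and the enzyme-only library 27.8 to 34.7. In the first 20 nt of the 3′UTR the densities were 34.6 (31.3 to 38.2) and 34.1 (30.8 to 37.6) per 1000. At 51 to 100 nt they were 45.2 (42.5 to 48.1) and 37.3 (34.8 to 39.9), and at 151 to 200 nt 45.7 (42.4 to 49.1) and 32.8 (30.1 to 35.8). Over the 5 windows of the 3′UTR the enzyme-only density ran from 32.8 to 37.3 and the RBFOX2 density from 34.6 to 46.2. Over cytosines after A or U alone, the RBFOX2 density was 48.6 to 59.6 per 1000 in the coding windows and 61.1 to 75.2 in those of the 3′UTR, and the enzyme-only density 39.5 to 52.4 and 47.0 to 56.1. On this scale the RBFOX2 library was already the higher in coding sequence away from the stop codon. In the window from 200 to 151 nt before the stop codon it was at 48.6 (44.5 to 52.9) against 39.5 (35.9 to 43.5). In the last 20 nt before the stop codon the libraries were level, at 51.9 (45.6 to 59.0) and 52.4 (46.0 to 59.5).

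**Figure D2:**
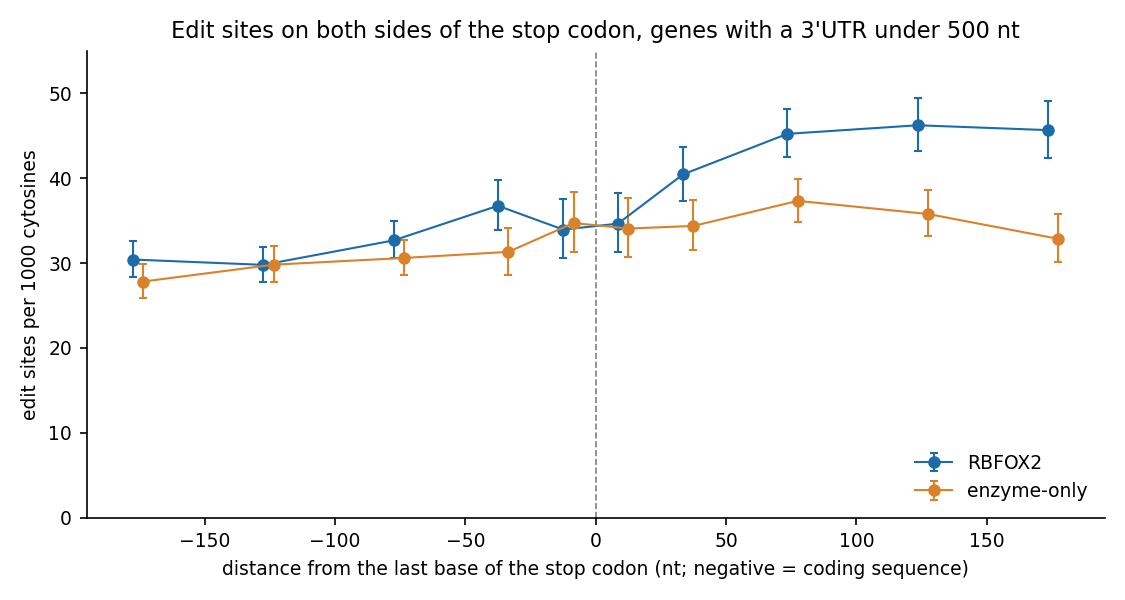
Edit sites per 1000 cytosines (y axis) against distance in nt from the stop codon (x axis) for genes with short 3′UTRs, with exact Poisson 95% intervals. Positive values count from its last base. Negative values are coding sequence and count back from its first base, although the axis names the last base. The libraries overlap in the 20 nt on either side of the stop codon, and at 51 to 100 nt the RBFOX2 library stands at 45.2 and the enzyme-only library at 37.3.

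The shortest 3′UTRs had the lowest RBFOX2 density. Those under 100 nt had 111 RBFOX2 and 133 enzyme-only sites, 29.5 (24.2 to 35.5) and 36.5 (30.6 to 43.3) per 1000 cytosines, the only one of 5 length classes in which the RBFOX2 density was the lower. From 100 to 199 nt the densities were 48.9 (45.4 to 52.6) and 35.4 (32.5 to 38.6), from 200 to 299 nt 39.4 (37.1 to 41.9) and 33.6 (31.5 to 35.9), and from 400 to 499 nt 41.6 (39.6 to 43.7) and 32.5 (30.8 to 34.3). In the last decile of 3′UTRs under 100 nt no RBFOX2 site was listed, which allows up to 0.328 of expected, while the enzyme-only library had 11 sites, 0.853 of expected (0.426 to 1.53).

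Short 3′UTRs were more densely edited than long ones in both libraries. Over positions within isoform models, short 3′UTRs had 43.7 RBFOX2 sites per 1000 cytosines (42.6 to 44.9) against 24.4 (24.1 to 24.6) in 3′UTRs of 500 nt or more, a ratio of 1.80 (1.74 to 1.85). The enzyme-only densities were 35.2 (34.2 to 36.3) and 17.0 (16.8 to 17.2), a ratio of 2.07 (2.01 to 2.14). Short 3′UTRs belonged to loci with more reads, a median of 160 against 117 in the RBFOX2 library and 151 against 109 in the enzyme-only library. Over 4 classes of locus reads (1 to 19, 20 to 99, 100 to 499, and 500 or more) the ratios lay between 1.45 and 1.92 for RBFOX2 sites and between 1.69 and 2.22 for enzyme-only sites. Over all annotated cytosines, models or not, they were 3.38 and 3.92.

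The excess of RBFOX2 over enzyme-only sites was smaller in short than in long 3′UTRs. It was 1.23 (1.18 to 1.28) for short 3′UTRs and 1.44 (1.42 to 1.46) for long ones, where 38384 RBFOX2 and 26676 enzyme-only sites were listed, against 1.20 over all sites. The RBFOX2 library also had more reads, and the median ratio of locus reads over 1831 short 3′UTRs listed in both libraries was 1.10.

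This excess lay in AU-rich short 3′UTRs. With short 3′UTRs listed in both libraries split into quartiles of G+C content, the lowest quartile (up to 33.7% G+C) had 1301 RBFOX2 and 721 enzyme-only sites, a ratio of 1.80 (1.65 to 1.98). The next quartiles had ratios of 1.38 (1.27 to 1.50) and 1.09 (1.01 to 1.18), and the highest (over 55.6% G+C) had 1121 and 1230 sites, a ratio of 0.911 (0.840 to 0.989). The ratio therefore fell at each step, and crossed 1 in the most GC-rich 3′UTRs. Median reads of the 4 quartiles lay between 166 and 211 in the RBFOX2 library and between 154 and 190 in the enzyme-only library.

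The fall with G+C content was also there at a fixed 5′ base and a fixed depth. Among cytosines after A or U the ratio went from 1.92 (1.74 to 2.12) in the lowest to 0.984 (0.874 to 1.11) in the highest quartile. Among cytosines after G or C the corresponding ratios were 1.18 (0.916 to 1.53) and 0.849 (0.757 to 0.951), whose intervals overlap. Loci of 500 reads or fewer in each library gave 1.82 and 0.975, and loci of 500 reads or more 2.79 and 1.17. For sites with at least 2 converted reads they were 2.84 (2.33 to 3.49) and 1.14 (0.920 to 1.41).

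**Figure D3:**
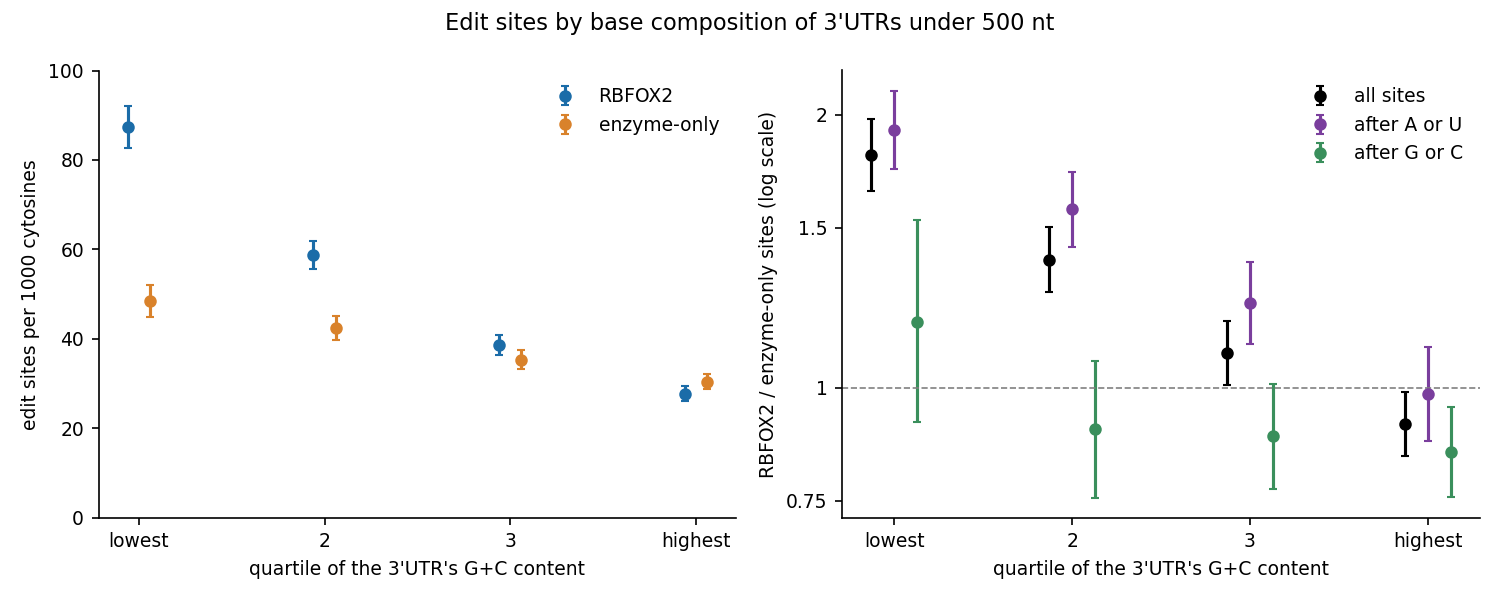
Left, edit sites per 1000 cytosines by quartile of the 3′UTR's G+C content in both libraries; right, RBFOX2 over enzyme-only sites (log axis) for all sites and by the base 5′ of the cytosine, with exact 95% intervals. The ratio falls from 1.80 in the lowest quartile to 0.911 in the highest, and sites after A or U follow the same order.

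The base before the edited cytosine was A or U in 73.0% of RBFOX2 sites (71.7 to 74.1) and 62.8% of enzyme-only sites (61.3 to 64.2), against 44.4% and 43.6% of the cytosines of the same 3′UTRs. The libraries differed mainly in A, which came before 35.8% (34.5 to 37.1) of RBFOX2 and 27.0% (25.7 to 28.3) of enzyme-only sites, and less in U (37.2% and 35.8%). The share of A or U rose with the number of converted reads. It was 68.3% and 60.2% at sites with 1 converted read, and 97.3% (93.8 to 99.1) and 83.9% (66.3 to 94.5) at sites with 5 or more, of which there were 186 RBFOX2 and 31 enzyme-only. On the 3′ side U was the most frequent base, at 47.0% and 45.3%.

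RBFOX2 sites had more converted reads. At least 2 were seen at 1275 RBFOX2 sites, a share of 23.7% (22.6 to 24.8), and at 690 enzyme-only sites, a share of 15.8% (14.7 to 16.9). Loci with 500 or more reads list no other kind of site and were more frequent among short 3′UTRs of the RBFOX2 library (17.2% and 15.3%). In loci under 500 reads the shares were 10.1% (9.23 to 11.0) and 6.45% (5.71 to 7.27), so the difference remained.

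Within 50 nt of UGCAUG, on the same strand of the spliced transcript, lay 228 RBFOX2 sites, a share of 4.24% (3.71 to 4.81), and 116 enzyme-only sites, a share of 2.65% (2.20 to 3.17). Of the cytosines in listed short 3′UTRs 2.69% and 2.60% lay that close. Against an equal spread over the cytosines of the same 3′UTR, RBFOX2 sites near the motif were at 1.10 of expected (0.960 to 1.25) and enzyme-only sites at 1.06 (0.874 to 1.27), both intervals including 1. Over positions within isoform models, the values were 1.09 (0.952 to 1.24) and 1.06 (0.874 to 1.27) in short 3′UTRs and 1.45 (1.39 to 1.52) and 0.871 (0.808 to 0.939) in long ones.

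The motif share rose with the number of converted reads in the RBFOX2 library. It was 3.04% (2.54 to 3.61) at sites with 1 converted read and 14.5% (9.79 to 20.4), or 27 of 186, at sites with 5 or more, where the value within the 3′UTR was 1.74 (1.14 to 2.53). For sites with at least 2 converted reads that value was 1.24 (1.01 to 1.51) in the RBFOX2 library and 0.863 (0.527 to 1.33) in the enzyme-only library. In loci with at least 500 reads in both libraries it was 1.45 (1.11 to 1.86) and 0.580 (0.265 to 1.10). By distance, RBFOX2 sites of any number of converted reads were highest at 11 to 20 nt on the 3′ side, at 1.53 (1.02 to 2.21). The enzyme-only value there was 1.21 (0.605 to 2.17), an interval that overlaps. RBFOX2 sites were also above 1 at 51 to 100 nt on the 5′ side, at 1.26 (1.01 to 1.55). In the other distance windows outside the hexamer the RBFOX2 interval included 1. Inside the hexamer itself 2 RBFOX2 sites were listed where 11.7 were expected, 0.172 (0.0208 to 0.620). The enzyme-only library had 2 where 4.78 were expected, 0.419 (0.0507 to 1.51). The cytosine of UGCAUG follows G, after which 25.1 RBFOX2 sites per 1000 cytosines were listed, against 102 after A. These expected numbers did not take the 5′ base into account.

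**Figure D4:**
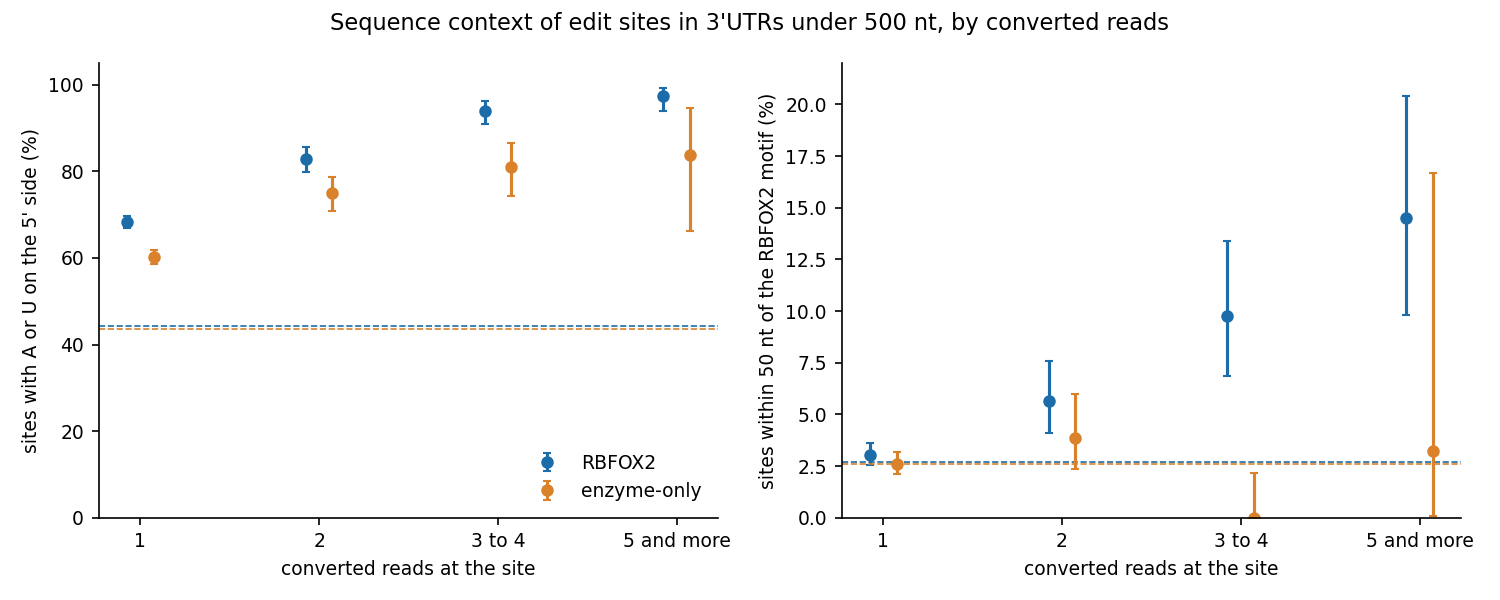
Share of sites with A or U on the 5′ side (left) and within 50 nt of UGCAUG (right) by the number of converted reads at the site, with exact 95% intervals; dashed lines give the share among all cytosines, left of 3′UTRs with a site of that library and right of listed short 3′UTRs. The RBFOX2 shares rise from 68.3% to 97.3% and from 3.04% to 14.5%.

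Whole 3′UTRs with the motif differed more between the libraries than 3′UTRs without it. UGCAUG was present in 124 short 3′UTRs listed in both libraries and absent from 1702. Those with the motif held 563 RBFOX2 and 327 enzyme-only sites, a ratio of 1.72 (1.50 to 1.98), and those without it 4483 and 3762, a ratio of 1.19 (1.14 to 1.24). For sites with at least 2 converted reads the ratios were 3.12 (2.37 to 4.15) and 1.71 (1.54 to 1.90). Split by G+C content, the lower 2 quartiles gave 2.78 (2.28 to 3.41) with the motif and 1.46 (1.37 to 1.55) without it, whereas the higher 2 gave 0.979 (0.797 to 1.20) and 1.00 (0.941 to 1.06). The difference tied to the motif was thus seen in AU-rich 3′UTRs, and the GC-rich ones showed none within counting error.

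Single 3′UTRs were compared by the log2 ratio of RBFOX2 to enzyme-only sites, with 0.5 added to each count and scaled by the totals of the libraries. Of all 2678 canonical 3′UTRs with at least 10 sites, 28.5% were over 2-fold higher and 14.7% over 2-fold lower in the RBFOX2 library. Of the 323 short ones, 76 were higher, a share of 23.5% (19.0 to 28.5), and 63 lower, a share of 19.5% (15.3 to 24.3). With the same minimum of converted reads in both libraries the numbers were 71 and 45 of 298 (23.8% and 15.1%), against 29.0% and 11.9% of all 2535. The median log2 ratio was 0.08 for short 3′UTRs and 0.29 for all.

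The 3′UTRs that moved each way had different composition. The median G+C content was 35.9% in the 76 higher in RBFOX2, 53.7% in the 63 lower and 47.6% in the 184 within 2-fold. UGCAUG was present in 17 of the 76 (22.4%), 6 of the 63 (9.52%) and 18 of the 184 (9.78%). In the lower set, 88.9% of the 722 enzyme-only sites had 1 converted read and 55.8% (52.1 to 59.5) followed A or U. In the higher set, 63.9% of the 915 RBFOX2 sites had 1 converted read and 80.9% (78.2 to 83.4) followed A or U. The other library differed between the sets in the same direction. A or U came before 61.5% (54.6 to 68.1) of RBFOX2 sites in the lower set and 74.3% (67.1 to 80.6) of enzyme-only sites in the higher set. Of all cytosines, 39.6% in the lower and 51.6% in the higher set followed A or U. The lower set also holds 3′UTRs with unequal read minimums, named below. Median RBFOX2 reads were 324 in the higher and 338 in the lower set.

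RRAGA, a Rag GTPase that signals amino acid supply to mTORC1, had the most RBFOX2 sites, 25 against 3 enzyme-only, with 460 and 533 reads. At these depths its sites needed 1 converted read in the RBFOX2 and 2 in the enzyme-only library, so the counts are not on equal terms, and with at least 2 converted reads in both its log2 ratio was 1.45 (−0.31 to 4.09). CFAP20, a cilium and flagellum protein, had 20 and 3 sites at 387 and 364 reads, a log2 ratio of 2.29 (0.72 to 4.87), and with the positions shared between the libraries kept it was 0.98 (−0.01 to 2.12). ITGB3BP, a centromere protein also known as CENP-R, had 19 and 2 at 320 and 288 reads, a log2 ratio of 2.70 (0.93 to 6.13). Within 50 nt of its single UGCAUG lay 6 of its 19 RBFOX2 sites and 2 of its 2 enzyme-only sites. CSPG5, a neural chondroitin sulfate proteoglycan, had 17 and 3 sites at 101 and 80 reads, and HEBP1, a heme-binding protein, 16 and 3 at 133 and 110. With at least 2 converted reads the intervals of ITGB3BP, CSPG5 and HEBP1 included 0 (lower bounds −0.86, −2.68 and −0.86). That of CFAP20 did not (lower bound 0.90).

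Some short 3′UTRs held RBFOX2 sites and no enzyme-only site. LAP3, a leucine aminopeptidase, had 17 RBFOX2 sites and no enzyme-only site at 384 and 343 reads, and all 17 followed A or U. With at least 2 converted reads its log2 ratio was 2.54 (lower bound −1.54), an interval that includes 0. BANF1 also had 17 and 0, at 1099 and 1028 reads, with up to 9 converted reads a site, and 9 of its sites lay within 50 nt of its UGCAUG. MTX2, a protein of mitochondrial import, had 15 and 0, of which 5 lay near its UGCAUG, and HELLS, a chromatin remodeler, had 13 and 0. With at least 2 converted reads the log2 ratio was 4.87 (lower bound 1.78) for BANF1 and 3.98 (lower bound 0.72) for MTX2. For HELLS it was 1.32 (lower bound −5.55), an interval that includes 0. MMADHC, which acts in vitamin B12 metabolism, had 12 and 0, but another 9 of its positions were listed in both libraries. With shared positions kept, its log2 ratio was 0.91 (−0.23 to 2.27).

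For other heavily edited short 3′UTRs the interval of the log2 ratio over all listed sites included 0. TOMM5, a subunit of the outer membrane import complex of mitochondria, had 18 and 16 sites at 387 and 408 reads, a log2 ratio of −0.10 (−1.15 to 0.97). Each of its enzyme-only sites had 1 converted read, and with at least 2 its log2 ratio was 3.82 (lower bound 0.51). A or U came before 17 of its 18 RBFOX2 and 7 of its 16 enzyme-only sites. ACOT7, an acyl-CoA thioesterase, had 15 and 16 (−0.35, −1.48 to 0.75), and MRPL34, a mitochondrial ribosomal protein, 16 and 11 (0.26, −0.92 to 1.53). UCP2, a mitochondrial carrier, had 19 and 7, a log2 ratio of 1.12 (−0.14 to 2.67), which is over 2-fold, and 7 of its 19 RBFOX2 sites followed A or U.

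On the enzyme-only side PLD3, a phospholipase D family protein of lysosomes, had 22 sites against 3 at 275 and 318 reads, a log2 ratio of −2.95 (−5.52 to −1.40). Each of its sites had 1 converted read, and 6 of the 22 followed A or U. Its 3′UTR holds 1 UGCAUG, and 7 of the 22 enzyme-only and 1 of the 3 RBFOX2 sites lay within 50 nt of it. B3GAT3, an enzyme of glycosaminoglycan synthesis, had 20 against 3 at 352 and 364 reads (−2.81, −5.39 to −1.25), with 7 of 20 after A or U. ZNF580, a zinc finger gene, had 18 against 5, and STX10, a SNARE protein, 17 against 8. With the coding positions of any transcript left out, the log2 ratio of STX10 was −0.60 (−2.29 to 0.97). ZNHIT1, a subunit of the SRCAP chromatin remodeler, THAP4 and UROS, an enzyme of heme synthesis, had 11 against 2, 10 against 2 and 9 against 1.

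For 5 more 3′UTRs the read minimum favored the enzyme-only library. SFT2D1 (19 against 2), PMVK of the mevalonate pathway (19 against 3), the sulfurtransferase MPST (18 against 0), the mitochondrial ribosomal protein MRPL9 (18 against 3) and SDR39U1 (17 against 3) had between 540 and 580 reads in the RBFOX2 library, where 2 converted reads were needed, and between 423 and 496 in the enzyme-only library, where 1 was enough. With at least 2 converted reads in both libraries the log2 ratio was 0.96 for MRPL9 and 0.22 for SDR39U1, and MPST was at −1.85 (interval up to 5.02). Their ratios as listed therefore cannot be read as differences in editing.

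**Figure D5:**
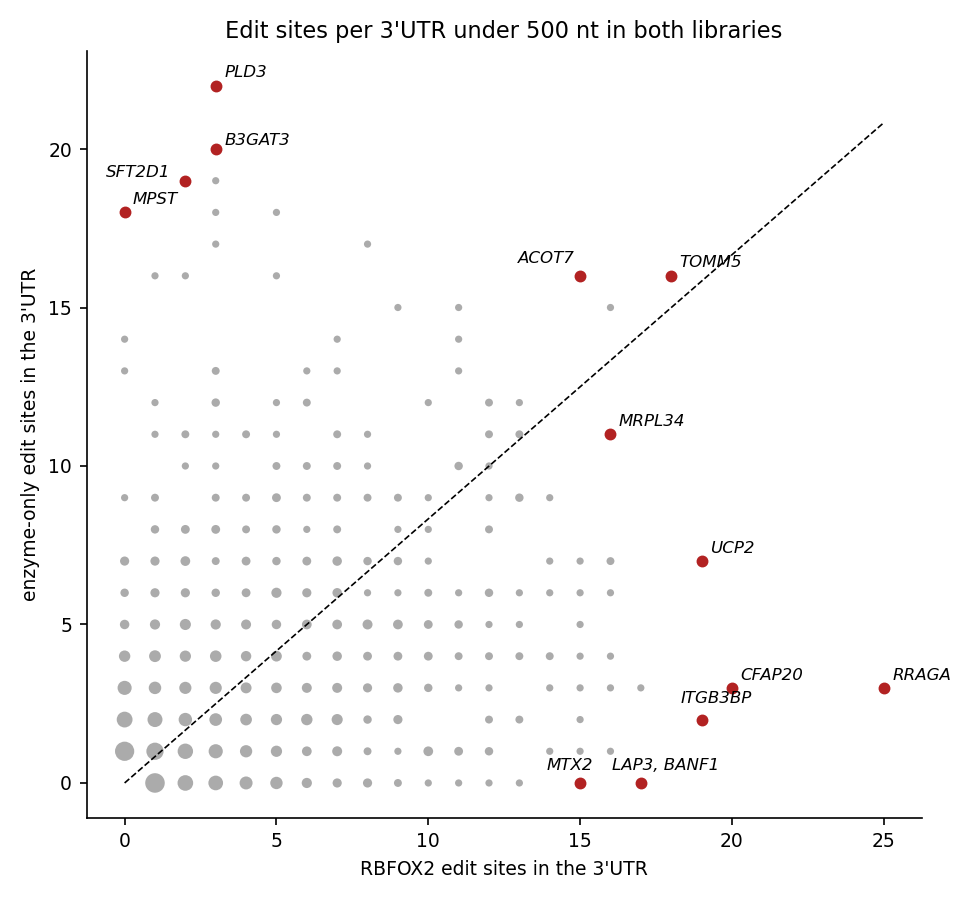
RBFOX2 (x axis) and enzyme-only (y axis) edit sites of each short 3′UTR with a site; larger grey points hold more 3′UTRs, red points are named, and the dashed line is equal editing after scaling by library totals. LAP3 (17 and 0) and PLD3 (3 and 22) lie far from the line, with at most 2 and 1 converted reads a site. RRAGA (25 and 3) also lies far from it, but on unequal read minimums. By all listed sites TOMM5 (18 and 16) lies near it.

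Several of the most deeply sequenced short 3′UTRs had more RBFOX2 sites. C1QBP had 10 RBFOX2 sites and 1 enzyme-only site, with at least 12 and 11 converted reads needed, a log2 ratio of 2.54 (0.25 to 8.50), and SRSF9 had 10 and 1 as well, with 8 and 7 needed. With shared positions kept the log2 ratios were 1.57 (−0.15 to 4.20) for C1QBP and 0.99 (−0.39 to 2.71) for SRSF9, intervals that include 0. H2AZ1 had 8 and 0 with 13 and 12 needed, and 5 more positions shared. SLC25A5, the ADP/ATP carrier of mitochondria, had 9 and 2, BEX3 7 and 2, and NPM1 6 and 1, with 4 more shared. PRDX1 had 3 and 1, CCT7 of the CCT chaperonin 1 and 2, the translation-associated factor BTF3 1 and 4 and the ribosomal stalk protein RPLP0 0 and 1, counts too small to tell apart. UBB had 4 RBFOX2 sites, and its locus was not listed in the enzyme-only table.

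Among gene groups, cytosolic ribosomal protein genes had the shortest 3′UTRs, a median of 62 nt over 43 listed genes, against 268 nt for all listed short 3′UTRs. They held 35 RBFOX2 and 16 enzyme-only sites, 35.0 (24.4 to 48.6) and 17.4 (9.72 to 28.6) per 1000 cytosines, and 15 of the 35 lay in RPL39 alone. Their loci were deep, with medians of 688 and 661 reads. Mitochondrial ribosomal protein genes held 118 RBFOX2 and 109 enzyme-only sites in 36 listed genes, a ratio of 1.08 (0.827 to 1.42). Of the 8 members with at least 10 sites, 3 were over 2-fold higher and 2 over 2-fold lower in the RBFOX2 library. The higher ones include MRPS7 (11 and 1) and MRPL32 (10 and 1). The lower ones include MRPL9, whose read minimums differ. With at least 2 converted reads its log2 ratio was 0.96 (−2.32 to 7.04), so it is no example of a lower ratio.

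Genes of the respiratory chain and ATP synthase had 92 and 102 sites in 45 listed genes, a ratio of 0.902 (0.673 to 1.21). UQCRH, of complex III, had 9 and 2 sites, and COX8A, of complex IV, 4 and 7. Proteasome genes had 46 and 40 sites in 20 listed genes, a ratio of 1.15 (0.736 to 1.80), and PSMD13 had 12 in each library. Both intervals included equal numbers. Over all short 3′UTRs, however, the ratio was 1.23 (1.18 to 1.28). The respiratory chain interval ended just below that value, at 1.21, and the proteasome interval included it.

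Genes of snRNP and LSM proteins, which build spliceosomal particles, had 30 and 18 sites in 10 listed genes, a ratio of 1.67 (0.899 to 3.17). The 4 listed SR and hnRNP genes with a short 3′UTR, which encode splicing regulators, had 20 and 4, a ratio of 5.0 (1.67 to 20.1), of which SRSF9 gave 10 and 1, HNRNPM 5 and 3 and HNRNPL 4 and 0. All 20 of these RBFOX2 sites followed A or U. Histone genes, most of whose messenger RNAs carry no poly(A) tail, were listed for only 11 of 86 short 3′UTRs and had 11 and 8 sites. The 46 listed ZNF genes had low reads, a median of 40 in each library, and 37 and 48 sites, a ratio of 0.771 (0.488 to 1.21).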

How the data were processed

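Edit sites of 1 RBFOX2 and 1 enzyme-only library were analyzed. In the study's methods, PacBio full-length reads were aligned to hg38 with pbmm2 and C-to-U edits were called with the authors' code; the labels name another library kit than the methods, and whether the tables come from the run whose settings the methods give is not stated. The authors deposited, per site, the count of converted reads, the count of reads of the locus, the fraction of these 2 counts, and a confidence score whose definition is not given in the sources used here. The fraction divides by reads of the whole locus, so it understates editing at positions that some isoforms lack. Deposited isoform models gave exon positions.

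Sites were placed on Ensembl canonical transcripts of GENCODE 44. Expected numbers spread each library's sites of a 3′UTR equally over its cytosines. Shares carry Clopper-Pearson intervals, observed over expected numbers and densities exact Poisson intervals, and ratios intervals from the binomial share of RBFOX2 sites (scipy 1.17.1). The calculation was tested on simulated sites. The 3′UTRs named were the 10 with the most sites in each library, the 5 highest and 5 lowest log2 ratios among those with at least 10 sites and the same read minimum, and the genes of the 10 sites with the most converted reads in each library; genes outside this rule are examples of a group, those with the most RBFOX2 sites or picked after their values were seen, or sites near UGCAUG. Members and lists were chosen with earlier results of these data known. Removal of annotated variants (dbSNP) was not repeated. The splits by G+C content were added after the main comparisons. Some items that these rules select are not reported here.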

Additional observations from a re-analysis of the deposited data

How the results depend on the processing

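No paired analysis was possible because each group held a single library. Values are given for the RBFOX2 library first and the enzyme-only library second. The alternatives gave 295 values, of which 236 moved by less than counting error or, for counts, less than 1.5 times. Of the 236, 140 were log2 ratios of single 3′UTRs, many with wide intervals. Among the main results 96 values stayed within these limits and 50 moved beyond them. In 2 single 3′UTRs the direction changed, which was judged only where the interval of the main value excluded no difference.

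With sites listed in both libraries kept, the share after A or U was 74.7% and 66.6% and the share with at least 2 converted reads 26.5% and 19.2%. Sites with at least 2 converted reads numbered 1275 and 690. Among them the share after A or U was 88.0% and 76.8%, the last decile of the RBFOX2 library was at 0.574 of expected, the first decile of the enzyme-only library at 0.929, its UGCAUG value at 0.863, and the ratio of short to long density at 4.22 and 5.76; the log2 ratio turned to 0.96 for MRPL9 and 0.22 for SDR39U1, whose read minimums differ. 3′UTRs under 300 nt left 2015 and 1656 sites, with the last decile at 0.531 and 0.562. In loci of 500 reads or fewer in each library the RBFOX2 share after A or U was 70.4%, and the shares with at least 2 converted reads were 10.2% and 6.03%. Loci with at least 500 reads, by the locus assigned to the gene, held 685 and 394 sites, 99.1% and 99.0% of them with at least 2 converted reads; the rest lie in another, shallower locus. There the shares after A or U were 86.4% and 74.6%, the last decile was at 0.509 and 0.787, the enzyme-only first decile at 0.675 and the UGCAUG values at 1.45 and 0.580. A confidence score of at least 0.5 left only 52 and 57 sites, with first deciles of 0.499 and 0.897, last deciles of 0.829 and 0.477, shares after A or U of 61.5% and 71.9%, UGCAUG values of 0.907 and 2.45 and shares with at least 2 converted reads of 5.77% and 1.75%, all with intervals wider than the differences between the libraries. With each 3′UTR counted once, the enzyme-only first decile was 1.10. Of the 52 short 3′UTRs with at least 20 sites, 8 were over 2-fold higher in the RBFOX2 library, a share of 15.4% (6.88 to 28.1). The 11 that were over 2-fold lower made a share of 21.2% (11.1 to 34.7). Of all 1111 canonical 3′UTRs with at least 20 sites, 26.6% were higher and 11.6% lower.

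Alternatives added after the data were seen were the weighting by isoform models, which moved the last decile to 0.803 and 0.784, and the restriction to positions within isoform models, which moved the ratio of short to long density to 1.80 and 2.07. The read minimum rises with depth, so weak sites of deep loci were not listed.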

Other observations

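C-to-U conversion of AACAAA makes AAUAAA, the poly(A) signal hexamer. In short 3′UTRs 24 RBFOX2 and 11 enzyme-only sites were of this kind, of 250 and 246 such cytosines. The RBFOX2 number was 1.74 of expected (1.12 to 2.59) and the enzyme-only number 1.36 (0.678 to 2.43). Since the edited cytosine follows A, the comparison with cytosines after the same base gave 1.03 (0.661 to 1.54) and 1.18 (0.590 to 2.12). Their median distances to the annotated 3′ end were 115 and 86 nt. AUCAAA, which becomes AUUAAA, was edited at 11 and 7 sites, 1.01 (0.504 to 1.81) and 1.13 (0.454 to 2.33) of expected for the same base.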
